A study of Homo sapiens with 6 samples.

Results

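RNAs named as antisense transcripts, most of them long and non-coding, were followed in a human rhabdomyosarcoma line through treatment with an HSP70 inhibitor and into acquired resistance. They were taken as the rows whose gene name ends in -AS1, -AS2 or -AS3 and whose mean reached 1 TPM (a level scaled for gene length and for the library's total) in at least 1 of 3 groups. Of 55401 rows, 784 had such a name, and 197 of these passed: 187 end in -AS1, 7 in -AS2 and 3 in -AS3. Of the others, 266 were listed at 0 in all 6 libraries and 321 lay between 0 and the minimum. The 197 RNAs were thus chosen by their levels in these libraries, and those levels are given as a description. The 32 RNAs that reached the minimum in 1 group only had to differ between groups. LEPREL1-AS1 lay just inside with a highest group mean of 1.02 TPM, and BCDIN3D-AS1 just outside with 0.955 TPM. Of the RNAs chosen, 139 reached 1 TPM in all 3 groups, 26 in 2 groups and 32 in 1 group only.

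The cells were RMS13, an alveolar rhabdomyosarcoma line obtained from a cell bank, which is a tumour of the skeletal muscle lineage. There were 3 groups of 2 libraries, A and B, each harvested after 9 h. Resistant cells, derived from RMS13 by acquired resistance, received 10 µM MAL3-101. Parental RMS13 cells received the same dose of the drug, or DMSO, the solvent, alone. MAL3-101 inhibits the chaperone HSP70, which helps other proteins fold. Nothing in the labels tells if A and B were grown as separate cultures, and the spread behind each p-value may therefore be technical. The number of resistant clones is not given either. Resistant cells with DMSO were not analysed here, so the resistant line is seen only in the presence of the drug. In RNA from whole cultures, a change in the share of cells that carry an RNA and a change in its level per cell cannot be told apart.

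An antisense RNA is transcribed from the strand opposite to the protein-coding gene whose name it carries. Some lie over the exons of that sense gene, and others start beside its promoter and run away from it. Members of this class have been described as guides of chromatin-modifying complexes, as hosts of small nucleolar RNAs (snoRNAs, which direct chemical modification of ribosomal RNA) and as binders of microRNAs. For most of them no function is established. By GENCODE type, 141 of the 197 are antisense, 24 processed transcripts, 20 lincRNAs and 3 unitary pseudogenes, while 4, NCBP2-AS2 among them, are listed as protein-coding, so the name alone does not make a row non-coding. GENCODE release 29 places the exons of 124 of the 197 RNAs over exons of the sense gene. In 29 the gene bodies overlap with exons apart, in 35 the bodies lie apart, and 9 had no arrangement annotated. In 83 the starts of both genes lie head to head within 1000 bases. The strand of the libraries is not stated, so where exons overlap, reads of the RNA and of its sense gene cannot be told apart. Under current RefSeq naming, 25 of the 197 carry a -DT suffix, for divergent transcript, in place of the older antisense name.

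The libraries were like one another in detection, with 160 to 168 of the 197 RNAs at 1 TPM or more in each. TPM keeps no read depth, so the number of reads behind a value is unknown. Of 11 fixed muscle lineage markers, 8 reached 1 TPM, including DES, MYOD1 and MYOG, while MYF5 was listed at 0. Their sums were 2346 to 2382 TPM in resistant cells, 2605 to 2618 TPM in treated parental cells and 2918 to 2983 TPM in DMSO cells, with single markers moving either way. CHRNA1, a subunit of the muscle acetylcholine receptor, averaged 51.0 TPM in resistant cells, 313.5 TPM in treated parental cells and 311 TPM in DMSO cells. MYOG, a muscle differentiation factor, averaged 679 TPM in resistant cells, 470.4 TPM in treated parental cells and 421 TPM in DMSO cells. Summed epithelial markers were 0.850 to 1.26 TPM in resistant cells, 28.6 to 29.3 TPM in treated parental cells and 12.4 to 16.5 TPM in DMSO cells. Summed fibroblast markers were 136 to 137 TPM in resistant cells, 38.1 to 39.1 TPM in treated parental cells and 41.4 to 45.4 TPM in DMSO cells. Of the 3 fibroblast markers, COL3A1 alone was highest in resistant cells, with a mean of 134 TPM against 15.6 TPM in treated parental cells and 30.4 TPM in DMSO cells. COL1A1 and PDGFRA were lowest there, at 2.20 and 0.390 TPM against 17.7 and 5.25 TPM in treated parental cells. Immune and endothelial sums were at most 1.47 TPM. Mitochondrial ribosomal RNA took 0.784% and 0.767% of TPM in resistant cells, 1.92% and 1.97% in treated parental cells, and 0.533% and 0.565% in DMSO cells. The part of these differences in the results was not tested, apart from a fit without mitochondrial rows, which called 18 RNAs higher and 32 lower between treated and DMSO parental cells, as did the fit with them. That fit called 48 higher and 27 lower between resistant and treated parental cells, and 36 higher and 30 lower between resistant and DMSO cells.

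The antisense RNAs were mostly scarce. Their median level over the 6 libraries was 2.87 TPM, with quartiles of 1.30 and 6.74 TPM, against 30.6 TPM for their tested sense genes and 16.3 TPM for all tested rows. A sense row was found for 191 RNAs, and in 12 of these pairs the sense gene was under 1 TPM in all groups. Over the other 179 pairs the median RNA stood at 11.4% of its sense gene, with quartiles of 3.79% and 39.9%. In 143 of the 191 pairs the RNA lay below its sense gene in every group mean, and in 32 it lay above it in all 3. Only 36 RNAs reached 10 TPM, and 3 reached 100 TPM. One of these, C17orf76-AS1, made up 61.4% to 70.2% of the summed antisense TPM of a library.

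C17orf76-AS1, now named SNHG29, is a snoRNA host gene and the most abundant of the 197 RNAs. It had 4735 and 4733 TPM in resistant cells, 3208 and 3153 TPM in treated parental cells, and 2668 and 2436 TPM in DMSO cells. The groups did not overlap, and the level was highest in resistant cells. On the log2(TPM + 1) scale used throughout, resistant cells exceeded treated parental cells by 0.57 ± 0.06 (moderated SE, 2 libraries a group; limma, Benjamini-Hochberg adjusted p = 0.00017). They exceeded DMSO cells by 0.89 ± 0.06 (limma adjusted p = 3.5e-05). Treated parental cells exceeded DMSO cells by 0.32 ± 0.06 (limma adjusted p = 0.0045), a call that ended without parental MAL3-101 library A (adjusted p between 7.4e-05 and 0.050 with 1 library left out). Its sense gene, listed as FAM211A, had 80.6 and 81.2 TPM in resistant cells, 52.2 and 52.2 TPM in treated parental cells, and 42.9 and 39.0 TPM in DMSO cells. The log2 differences of FAM211A, 0.62, 0.97 and 0.35 in the same 3 comparisons, were close to those of the RNA, and 12.0% of the RNA's exon bases lie over FAM211A exons.

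AGAP2-AS1, an RNA reported at high levels in several cancers, was the second of the 3. It had 233 and 239 TPM in resistant cells, 204 and 200.5 TPM in treated parental cells, and 267 and 260 TPM in DMSO cells. The 3 groups did not overlap, and DMSO cells were highest. AGAP2, a GTPase-activating protein gene, was lowest in DMSO cells, with 60.4 and 61.9 TPM in resistant cells, 50.6 and 52.4 TPM in treated parental cells, and 35.5 and 35.7 TPM in DMSO cells. C20orf166-AS1 passed 100 TPM through the resistant line alone and is described with that line.

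**Figure D1:**
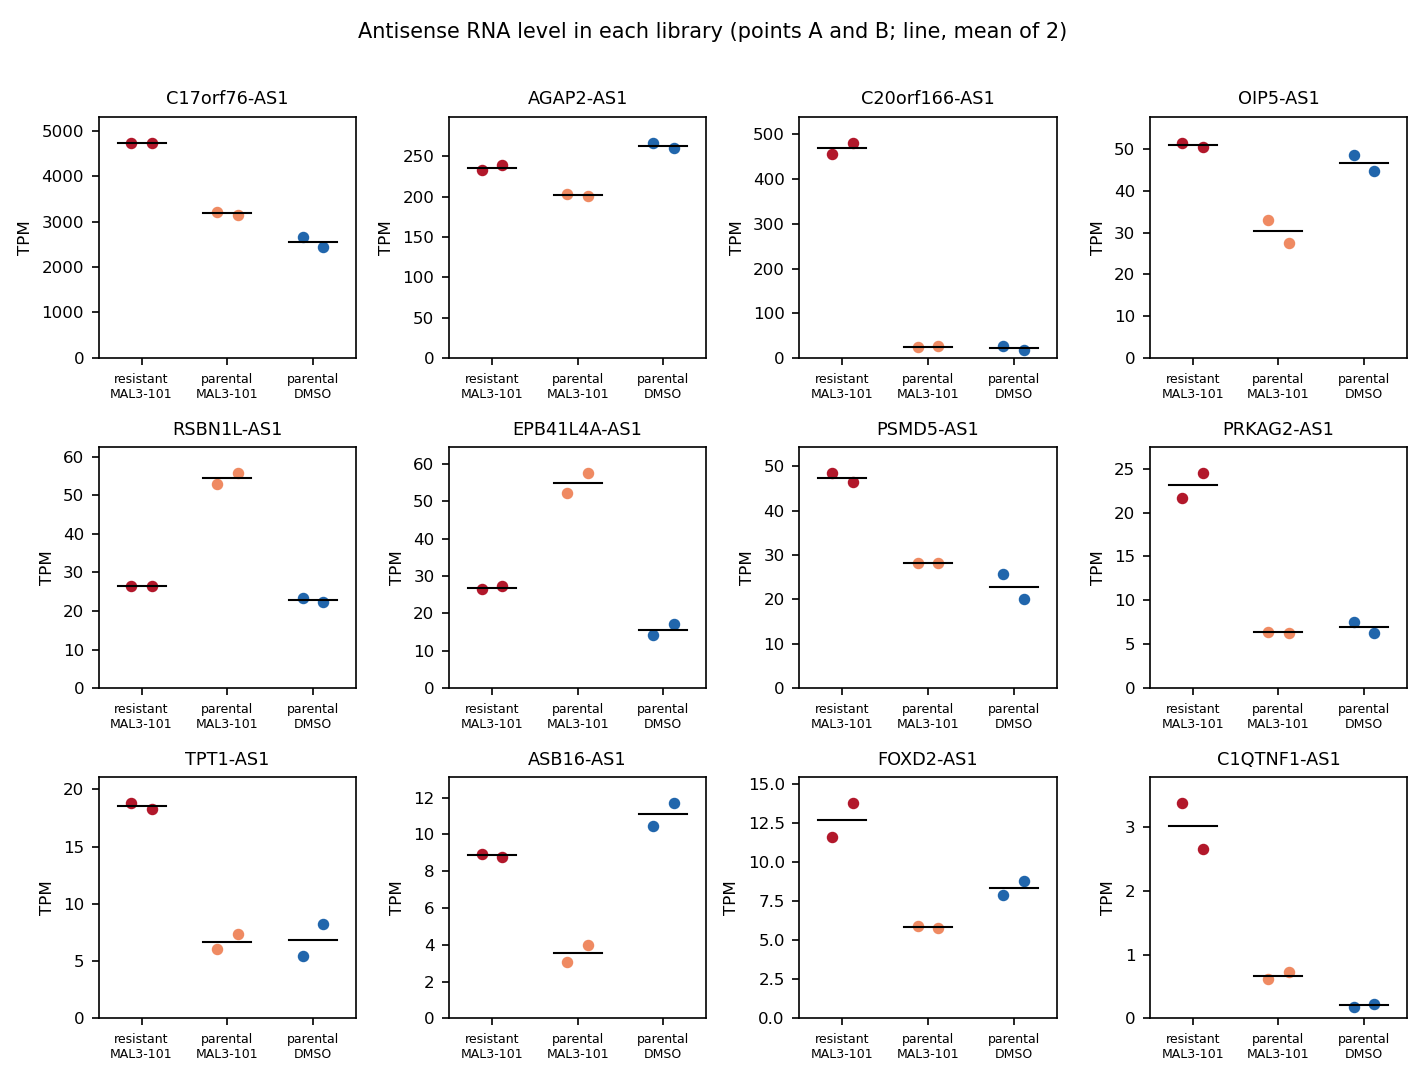
TPM of 12 antisense RNAs in each library, with 1 panel an RNA and a linear axis from 0; points are libraries A and B and lines their means. C20orf166-AS1 stands at 456 and 481 TPM in resistant cells against at most 26.5 TPM elsewhere, while RSBN1L-AS1 and EPB41L4A-AS1 are highest in treated parental cells.

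In parental cells treated with MAL3-101, a pair of antisense RNAs, EPB41L4A-AS1 and RSBN1L-AS1, were more than doubled relative to DMSO cells, and ASB16-AS1, KDM4A-AS1 and RUSC1-AS1 fell. The abundant OIP5-AS1, FGD5-AS1 and AGAP2-AS1 fell by less. This comparison asks what the inhibitor changed in cells that had not acquired resistance. Among the 197 RNAs, 18 were called higher and 32 lower, 25.4% in all, at a limma adjusted p under 0.05 over all tested rows. Of all 15148 tested rows, 40.8% were called (22.6% higher and 18.2% lower), so the share among antisense RNAs lay below the background. Their median log2 difference was -0.07, against 0.02 over all tested rows. Among the 59 RNAs at 5 TPM or more, 6 were called higher and 12 lower, or 30.5%. Of all rows at 5 TPM or more, 47.8% were called (26.3% higher and 21.5% lower). Levels were not matched above that limit, with medians of 12.8 TPM for the RNAs and 27.9 TPM for all such rows. Among the 138 RNAs under 5 TPM the share was 23.2% (8.7% higher and 14.5% lower). In total this was near the 22.7% of all such rows, whose split was 13.1% higher and 9.64% lower. The 2 groups of libraries did not overlap for 41 RNAs that were higher and 71 that were lower, where 69.8% of all tested rows did not overlap. Without parental MAL3-101 library A the counts were 6 higher and 15 lower, and without library B 10 higher and 16 lower. Leaving out resistant library A or B gave 11 higher in both cases. The 14 calls that held in each of the 6 fits with 1 library left out are coloured in the plot of held calls.

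EPB41L4A-AS1, which hosts a snoRNA, had 52.2 and 57.6 TPM in treated parental cells, against 14.1 and 17.1 TPM in DMSO cells. The groups were far apart, and the log2 difference was 1.76 ± 0.10 (limma adjusted p = 4.7e-05). RSBN1L-AS1, now named APTR, has been described as a repressor of the cell cycle inhibitor gene CDKN1A. It had 52.9 and 55.8 TPM in treated parental cells, against 23.4 and 22.3 TPM in DMSO cells, a log2 difference of 1.21 ± 0.06 (limma adjusted p = 3.5e-05). Their sense genes gave no call. EPB41L4A had 1.16 and 1.90 TPM in treated parental cells against 2.54 and 1.69 TPM in DMSO cells, and RSBN1L had 28.3 and 29.1 TPM in treated parental cells against 29.9 and 24.7 TPM in DMSO cells. RSBN1L-AS1 starts head to head with RSBN1L and shares no exon bases with it, whereas 49.6% of the exon bases of EPB41L4A-AS1 lie over EPB41L4A exons.

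Smaller rises that held with each library left out were those of MATN1-AS1, ZBED3-AS1 and PCBP1-AS1. ZBED3-AS1 had 4.65 and 3.9 TPM in treated parental cells, against 2.18 and 1.67 TPM in DMSO cells, a log2 difference of 0.85 ± 0.15 (limma adjusted p = 0.0047). Its head-to-head sense gene ZBED3, whose product binds the Wnt pathway protein axin, rose as well, by 1.02. DNAJC3-AS1 lies head to head with DNAJC3, which encodes a J-domain co-chaperone of the endoplasmic reticulum. It had 3.15 and 2.78 TPM in treated parental cells against 1.26 and 1.63 TPM in DMSO cells (log2 difference 0.70; limma adjusted p = 0.0084). The call ended without parental MAL3-101 library A (adjusted p between 0.0047 and 0.067 with 1 library left out). DNAJC3 itself had 60.7 and 57.7 TPM in treated parental cells and 16.9 and 16.4 TPM in DMSO cells, a log2 difference of 1.77.

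The falls were led by ASB16-AS1, with 3.04 and 4.01 TPM in treated parental cells against 10.5 and 11.7 TPM in DMSO cells. Its log2 difference was -1.42 ± 0.13 (limma adjusted p = 0.00039). KDM4A-AS1 had 1.37 and 1.14 TPM in treated parental cells against 3.81 and 4.43 TPM in DMSO cells (log2 difference -1.18 ± 0.18; limma adjusted p = 0.0026). For both RNAs the 2 groups were apart. RUSC1-AS1 (-1.0), BAIAP2-AS1 (-0.71), PRKCQ-AS1 (-0.69), OIP5-AS1 (-0.61), FGD5-AS1 (-0.48), NCBP2-AS2 (-0.44) and AGAP2-AS1 (-0.38) also fell, and their calls held with each library left out. OIP5-AS1 is a conserved RNA known for a site that leads to decay of the microRNA miR-7. It had 33.1 and 27.6 TPM in treated parental cells, against 48.6 and 44.9 TPM in DMSO cells. OIP5, a centromere protein gene, fell with it, by 0.45 on the log2 scale. TMPO-AS1, whose sense gene encodes a nuclear lamina protein, was called lower too, but not without parental MAL3-101 library B (adjusted p of up to 0.067 with 1 library left out).

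Between resistant and parental cells, both with MAL3-101, C20orf166-AS1 rose most of the 197 RNAs, and PRKAG2-AS1, TPT1-AS1, IL10RB-AS1 and ASB16-AS1 at least doubled on the log2 scale used. EPB41L4A-AS1, RSBN1L-AS1, MATN1-AS1 and ATP6V0E2-AS1 fell. This comparison asks how the resistant line differs under the same drug dose. Of the 197 RNAs, 47 were called higher and 28 lower, 38.1% in all, where 56.1% of all tested rows were called (21.3% higher and 34.8% lower). The higher share of the antisense RNAs, 23.9%, was near that of all rows, and their lower share, 14.2%, was smaller. Of the 47 higher RNAs, 13 were called lower in treated against DMSO parental cells and gave no call in resistant against DMSO cells. Low values in the shared treated parental libraries enter both of those calls. The split of all rows was 3228 higher and 5267 lower, and it became 4241 and 4356 under median-ratio scaling. Under that scaling the antisense RNAs had 55 higher and 21 lower. Their median log2 difference was 0.10, against -0.10 over all tested rows. Among RNAs at 5 TPM or more, 25 of 59 were called higher (42.4%) and 10 lower (16.9%). Of all rows at 5 TPM or more, whose median level was higher, 23.6% were higher and 38.8% lower, 62.4% in all. Under 5 TPM, 40 of the 138 RNAs were called (15.9% higher and 13.0% lower), where 39.7% of all such rows were (15.5% higher and 24.3% lower). Libraries did not overlap for 88 RNAs that were higher and 51 that were lower, where 83.4% of all tested rows did not overlap. No test was run of these shares. Without resistant library A the counts were 27 higher and 13 lower, without resistant library B 30 and 13, and without parental MAL3-101 library A 29 and 14. In each of the 6 such fits, 23 higher and 10 lower calls held.

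**Figure D2:**
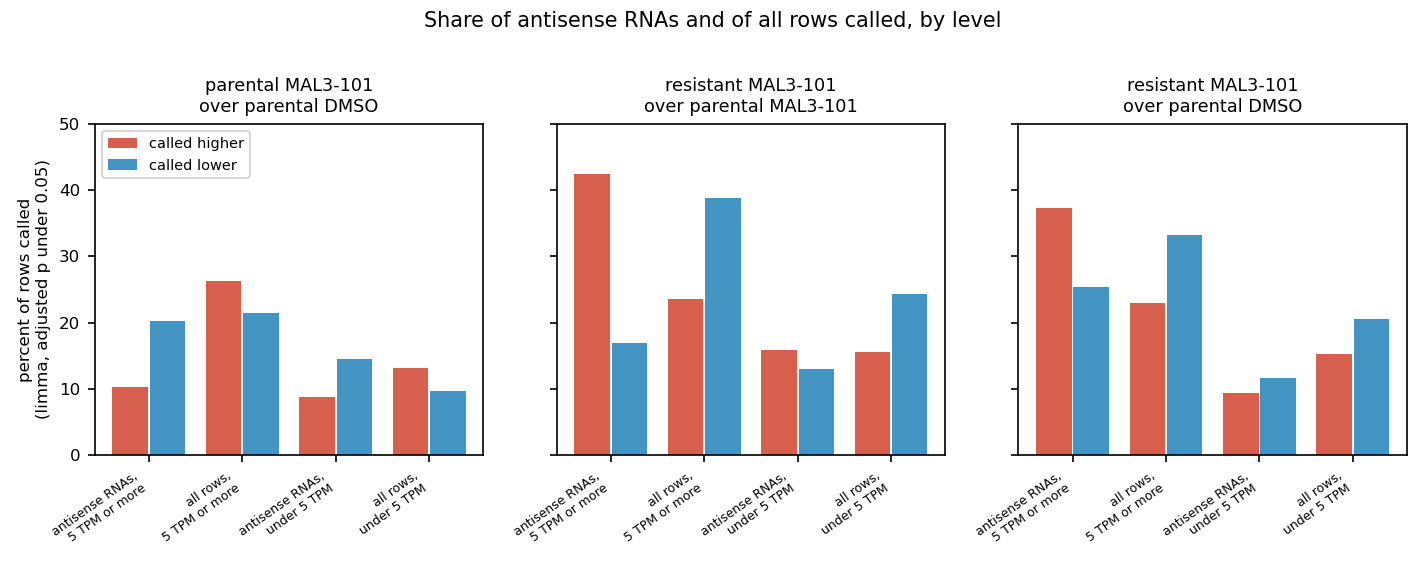
Percent of rows called higher or lower (limma, adjusted p under 0.05) in 3 comparisons, for antisense RNAs and all tested rows at 5 TPM or more and under 5 TPM; bars start at 0. Between resistant and parental cells with MAL3-101, 42.4% of antisense RNAs at 5 TPM or more were higher and 16.9% lower, against 23.6% and 38.8% of all rows.

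C20orf166-AS1 lies in the body of C20orf166, the host gene of the muscle microRNAs miR-1 and miR-133a, with no exon bases shared. It had 456 and 481 TPM in resistant cells, against 24.7 and 26.3 TPM in treated parental cells and 26.5 and 18.15 TPM in DMSO cells. The resistant libraries stood far above all others, and the parental groups overlapped. Resistant cells exceeded treated parental cells by 4.15 ± 0.15 (limma adjusted p = 3.2e-06) and DMSO cells by 4.35 ± 0.15 (limma adjusted p = 4.2e-06). C20orf166 moved with it, with 20.4 and 23.7 TPM in resistant cells, 0.940 and 0.870 TPM in treated parental cells, and 2.49 and 1.52 TPM in DMSO cells. Its log2 differences were 3.59 and 2.96 in the same 2 comparisons. The microRNA rows themselves, MIR1-1 and MIR133A2, were listed at 0, which does not show the level of the mature microRNAs. The 2 mature microRNAs of the locus are given from RefSeq (GRCh38.p14), with the seed, bases 2 to 8, in capitals. They are shown because C20orf166, their host gene, moved with the antisense RNA, and they have different seeds.
hsa-miR-1-3p: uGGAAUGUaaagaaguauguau
hsa-miR-133a-3p: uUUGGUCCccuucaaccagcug

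The window from 250 bases before to 50 after the start of C20orf166-AS1 (RefSeq, GRCh38.p14, chr20:62551512-62551811, minus strand, listed as CRMA) is shown because this RNA changed most. Capitals mark GGGCGG, the letters of a GC box, on either strand, found 4 times.
C20orf166-AS1: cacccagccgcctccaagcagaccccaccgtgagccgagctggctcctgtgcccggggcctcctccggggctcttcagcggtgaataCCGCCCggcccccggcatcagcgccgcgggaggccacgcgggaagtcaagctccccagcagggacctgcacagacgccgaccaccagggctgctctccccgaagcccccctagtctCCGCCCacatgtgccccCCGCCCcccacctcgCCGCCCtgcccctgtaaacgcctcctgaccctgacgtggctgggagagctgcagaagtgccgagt

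PRKAG2-AS1 starts head to head with PRKAG2, the gene of a regulatory subunit of the energy sensor AMPK. Exons of both genes overlap, and reads in the shared bases cannot be told apart. PRKAG2-AS1 had 21.7 and 24.5 TPM in resistant cells, against 6.36 and 6.31 TPM in treated parental cells and 7.49 and 6.32 TPM in DMSO cells. Both resistant libraries lay above all 4 parental ones. The log2 difference was 1.71 ± 0.11 against treated parental cells (limma adjusted p = 3.3e-05) and 1.61 ± 0.11 against DMSO cells (limma adjusted p = 5.0e-05). PRKAG2 had 20.6 and 20.8 TPM in resistant cells, 24.5 and 23.8 TPM in treated parental cells, and 22.4 and 24.2 TPM in DMSO cells. Its small difference of -0.22 between the drug-treated lines was called, but not without parental MAL3-101 library A or B or resistant library A or B (adjusted p between 0.0091 and 0.18 with 1 library left out). The start window of PRKAG2-AS1 (RefSeq, GRCh38.p14, chr7:151876792-151877091, plus strand) is shown as that of an RNA that rose beside a promoter whose other gene did not. It held none of the letters searched, which are given with the shares below.
PRKAG2-AS1: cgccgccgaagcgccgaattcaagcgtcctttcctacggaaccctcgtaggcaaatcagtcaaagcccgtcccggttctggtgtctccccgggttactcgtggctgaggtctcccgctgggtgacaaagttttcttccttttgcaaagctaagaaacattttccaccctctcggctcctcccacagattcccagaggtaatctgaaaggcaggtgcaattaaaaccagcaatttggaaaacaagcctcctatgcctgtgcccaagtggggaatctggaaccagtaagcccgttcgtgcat

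TPT1-AS1 had 18.8 and 18.25 TPM in resistant cells, against 6.05 and 7.34 TPM in treated parental cells and 5.44 and 8.25 TPM in DMSO cells. Its log2 difference from treated parental cells was 1.35 ± 0.18 (limma adjusted p = 0.00062). TPT1, which encodes the very abundant translationally controlled tumour protein, had 3619 and 3699 TPM in resistant cells, 3443 and 3368 TPM in treated parental cells, and 3194 and 2571 TPM in DMSO cells. IL10RB-AS1, head to head with the gene of an interleukin-10 receptor chain, had 11.9 and 11.2 TPM in resistant cells, 3.97 and 4.17 TPM in treated parental cells, and 7.34 and 4.77 TPM in DMSO cells. Its log2 difference from treated parental cells was 1.31 ± 0.18 (limma adjusted p = 0.00069). For both RNAs the resistant libraries were above the 4 others. PSMD5-AS1 had 48.5 and 46.3 TPM in resistant cells, 28.1 and 28.2 TPM in treated parental cells, and 25.7 and 20.02 TPM in DMSO cells. It is now named CUTALP, a pseudogene related to CUTA, so reads of the related copies may have been split between them.

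C1QTNF1-AS1 and SH3RF3-AS1 reached 1 TPM in resistant cells only, so they entered through the group in which they are high, and their levels are given as a description. C1QTNF1-AS1 had 3.38 and 2.66 TPM in resistant cells, 0.610 and 0.720 TPM in treated parental cells, and 0.180 and 0.230 TPM in DMSO cells. SH3RF3-AS1 had 2.61 and 2.19 TPM in resistant cells, 1.0 and 0.630 TPM in treated parental cells, and 0.560 and 0.28 TPM in DMSO cells. Their sense genes, encoding a secreted protein of the C1q and TNF related family and a ubiquitin ligase, rose by 1.34 and 2.19 on the log2 scale against treated parental cells.

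Several RNAs whose lowest levels were in treated parental cells were higher in resistant cells. A low value in those libraries enters both this choice and the difference. Against the DMSO levels given above, resistant cells were lower for ASB16-AS1 and only slightly higher for OIP5-AS1. ASB16-AS1 had 8.94 and 8.78 TPM in resistant cells, against 3.04 and 4.01 TPM in treated parental cells (log2 difference 1.13 ± 0.13; limma adjusted p = 0.00039). OIP5-AS1 had 51.6 and 50.65 TPM in resistant cells, against 33.1 and 27.6 TPM in treated parental cells (log2 difference 0.74 ± 0.09; limma adjusted p = 0.00047). FOXD2-AS1 had 11.6 and 13.8 TPM in resistant cells, 5.91 and 5.82 TPM in treated parental cells, and 7.88 and 8.82 TPM in DMSO cells. Its log2 difference from treated parental cells was 0.99 ± 0.12 (limma adjusted p = 0.00039), and that of FOXD2, a forkhead transcription factor gene, was 0.69. MFI2-AS1 (1.09), CEBPA-AS1 (0.95), MCM3AP-AS1 (0.90) and NCBP2-AS2 (0.76) also rose, and all these calls held with each library left out. MFI2, the melanotransferrin gene, and NCBP2, of the cap-binding complex, rose with their RNAs, by 0.90 and 0.43. MCM3AP, an mRNA export factor gene, was at 49.6 and 50.3 TPM in resistant cells against 53.6 and 53.0 TPM in treated parental cells.

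EPB41L4A-AS1 and RSBN1L-AS1, which rose with the drug in parental cells, were lower in resistant cells. EPB41L4A-AS1 had 26.5 and 27.3 TPM in resistant cells, against 52.2 and 57.6 TPM in treated parental cells (log2 difference -1.0 ± 0.10; limma adjusted p = 0.00018). RSBN1L-AS1 had 26.4 and 26.5 TPM in resistant cells, against 52.9 and 55.8 TPM in treated parental cells (log2 difference -1.01 ± 0.06; limma adjusted p = 2.6e-05). Both comparisons use the same treated parental libraries, so a high value there raises one difference and lowers the other. THAP9-AS1, the fourth most abundant of the RNAs, had 76.4 and 82.4 TPM in resistant cells, against 113 and 104 TPM in treated parental cells (log2 difference -0.45; limma adjusted p = 0.0016). At low levels, MATN1-AS1 had 0.680 and 0.740 TPM in resistant cells, against 2.98 and 2.62 TPM in treated parental cells (log2 difference -1.15; limma adjusted p = 0.00056). ATP6V0E2-AS1 had 0.620 and 0.710 TPM in resistant cells, 2.22 and 2.48 TPM in treated parental cells, and 2.29 and 3.07 TPM in DMSO cells. Its log2 difference from treated parental cells was -1.01 (limma adjusted p = 0.0017). C1QTNF9B-AS1 (-0.93) and ST7-AS1 (-0.61) fell as well. KRTAP5-AS1, ARHGAP31-AS1 and GRTP1-AS1 were also called, but each had entered through 1 group only.

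**Figure D3:**
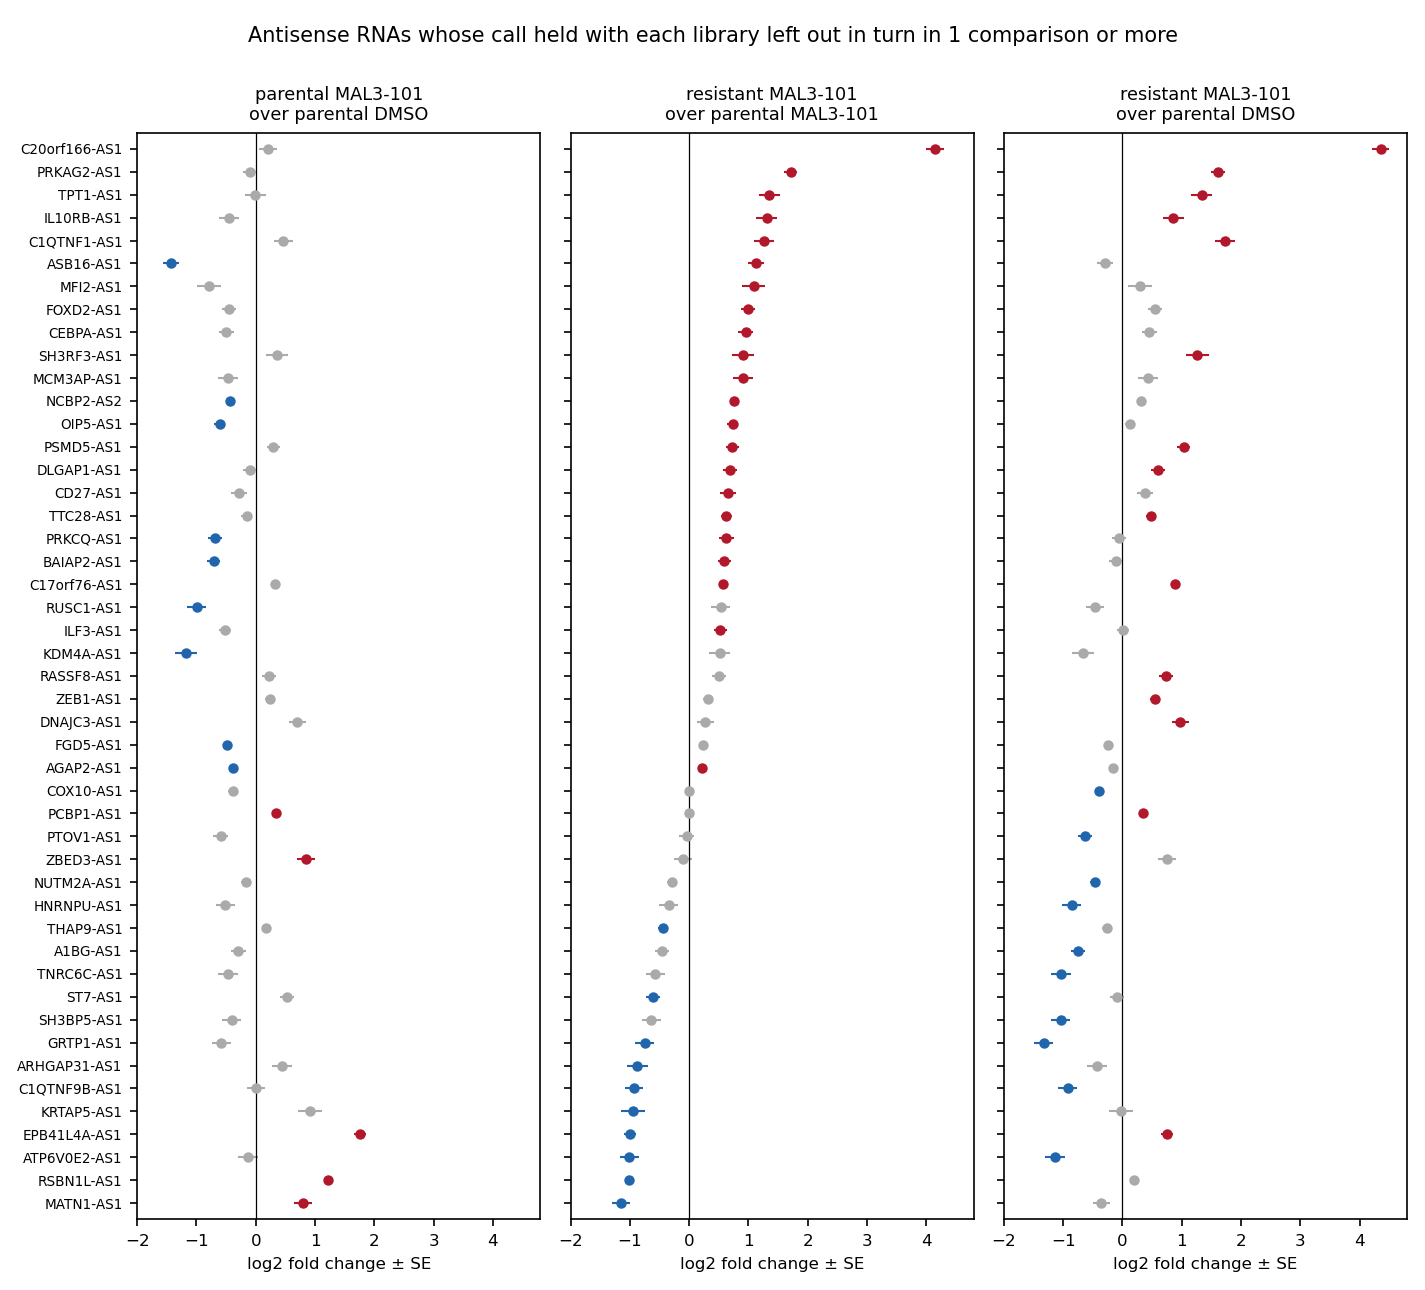
Log2 fold change with moderated SE of 47 of the 48 antisense RNAs whose call held with each library left out in at least 1 of 3 comparisons, ordered by the comparison of resistant with parental cells under MAL3-101. Red and blue mark held higher and lower calls, grey the others; 14, 32 and 25 of those plotted held in the 3 panels from left to right, and C20orf166-AS1 stands apart at 4.15 and 4.35.

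Set against DMSO-treated parental cells, resistant cells had higher C20orf166-AS1, PRKAG2-AS1, TPT1-AS1, DNAJC3-AS1 and PSMD5-AS1. ATP6V0E2-AS1, SH3BP5-AS1 and TNRC6C-AS1 were lower. Line and drug both differ here, so their parts cannot be told apart. Of the 197 RNAs, 35 were called higher and 31 lower, 33.5% in all, where 50.6% of all tested rows were called (20.9% higher and 29.7% lower). Under median-ratio scaling the split was 42 higher and 24 lower, and that of all rows 4071 and 3763, where it had been 3160 and 4502. The median log2 difference of the antisense RNAs was -0.00, against -0.06 over all tested rows. At 5 TPM or more, 62.7% of the RNAs were called (37.3% higher and 25.4% lower), where 56.3% of all such rows were (23.0% higher and 33.3% lower). Under 5 TPM, the called were 29 of the 138 RNAs (9.42% higher and 11.6% lower), where 35.7% of all such rows were called (15.3% higher and 20.5% lower). Libraries did not overlap for 68 RNAs that were higher and 63 that were lower, where 75.8% of all tested rows did not overlap. Without resistant library A the counts were 23 higher and 13 lower, and without resistant library B 16 higher and 17 lower. In every such fit, 15 higher and 10 lower calls held. In all 3 comparisons the counts include RNAs that entered through 1 group only and had to differ.

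PSMD5-AS1 exceeded its DMSO level by 1.03 ± 0.11 (limma adjusted p = 0.00029), with both resistant libraries above both DMSO libraries. DNAJC3-AS1 had 3.71 and 3.88 TPM in resistant cells against 1.26 and 1.63 TPM in DMSO cells, a log2 difference of 0.98 ± 0.15 (limma adjusted p = 0.0013). DNAJC3 differed by 0.45 in the same direction. ZEB1-AS1 has been described as an activator of its neighbour ZEB1, a repressor of epithelial genes. It had 12.6 and 12.8 TPM in resistant cells, 9.99 and 10.0 TPM in treated parental cells, and 8.41 and 8.23 TPM in DMSO cells. The log2 difference from DMSO cells was 0.55 ± 0.09 (limma adjusted p = 0.0018), and ZEB1 differed by 0.81 in the same direction. Against treated parental cells the pair was called in opposite directions, with log2 differences of 0.31 for ZEB1-AS1 and -0.23 for ZEB1 (limma adjusted p = 0.019 and 0.025). Both of these calls ended without any 1 of the 4 libraries with MAL3-101 (adjusted p of up to 0.12 and 0.15 with 1 library left out). The epithelial marker sums were 0.850 to 1.26 TPM in resistant cells and 28.6 to 29.3 TPM in treated parental cells. In DMSO cells they were 12.4 to 16.5 TPM. ZEB1 was also called higher in treated than in DMSO parental cells, where these sums were higher too. Only 3 of the 5 epithelial markers reached 1 TPM in any group, and CDH1 averaged at most 0.27 TPM. The part of these markers in the results was not tested. EPB41L4A-AS1 was also above its DMSO level, by 0.76 ± 0.10 (limma adjusted p = 0.00077).

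On the lower side, SH3BP5-AS1 had 0.550 and 0.520 TPM in resistant cells, 1.60 and 1.20 TPM in treated parental cells, and 2.15 and 2.18 TPM in DMSO cells. The log2 difference from DMSO cells was -1.04 ± 0.16 (limma adjusted p = 0.0014). SH3BP5, a regulator gene of the kinase JNK and of Rab11, fell by more, with 0.470 and 0.290 TPM in resistant cells against 10.7 and 9.48 TPM in DMSO cells. COX10-AS1 had 21.6 and 21.0 TPM in resistant cells against 29 and 27.45 TPM in DMSO cells, a log2 difference of -0.39 (limma adjusted p = 0.0038). TNRC6C-AS1 (-1.04) and C1QTNF9B-AS1 (-0.93) were lower as well, and these 4 calls held with each library left out. Under current naming TNRC6C-AS1 matches another symbol, TMC6, which was not used here, so which transcript that row holds is uncertain. GRTP1-AS1, which entered through DMSO cells only, had 0.130 and 0.00 TPM in resistant cells, 0.780 and 0.800 TPM in treated parental cells, and 1.56 and 1.79 TPM in DMSO cells.

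Some of the best-known antisense RNAs gave no call. The 5 RNAs of the HOX clusters (HOXA-AS2, HOXA-AS3, HOXB-AS1, HOXB-AS3 and HOXC-AS1), which lie among the genes of body axis patterning, had between 0.530 and 3.83 TPM in single libraries. In limma 0 of the 5 were called in each comparison, and 0 had an unadjusted p under 0.05. Of all rows under 5 TPM, 22.7%, 39.7% and 35.7% were called in the 3 comparisons, so few calls would be due among 5 RNAs. The median SE of a log2 difference of these 5 RNAs was 0.25. CDKN2B-AS1, also called ANRIL, had 1.66 and 2.25 TPM in resistant cells, 2.53 and 3.64 TPM in treated parental cells, and 2.51 and 1.88 TPM in DMSO cells. The groups overlapped between resistant and DMSO cells. CDKN2B, the cell cycle inhibitor gene beside it, had 5.79 and 6.36 TPM in resistant cells, 12.9 and 15.0 TPM in treated parental cells, and 5.80 and 6.32 TPM in DMSO cells. VIM-AS1 had 3.53 and 3.20 TPM in resistant cells, 3.07 and 3.02 TPM in treated parental cells, and 1.63 and 2.85 TPM in DMSO cells. VIM, the intermediate filament gene, had 1228 and 1248 TPM in resistant cells, 1725 and 1732 TPM in treated parental cells, and 1642 and 1984 TPM in DMSO cells. A p above the threshold does not show that these RNAs were alike in the groups, and at these levels the SE of a log2 difference was larger, with a median of 0.18 for antisense RNAs under 5 TPM against 0.12 at 5 TPM or more.

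Each RNA was then set beside its sense gene in 179 pairs with both rows tested, which involve 178 sense genes since DLGAP1 has 2 RNAs. In treated against DMSO parental cells, both members were called in 28 pairs, 18 in the same direction (7 higher and 11 lower) and 10 in opposite directions. In 18 pairs the RNA alone was called, in 58 the sense gene alone and in 75 neither. In resistant against parental cells with the drug, 42 pairs had both called, 32 in the same direction and 10 in opposite directions. In resistant against DMSO cells there were 34 pairs, 31 in the same direction and 3 in opposite directions. Sense genes were called more often than their RNAs, at 48.0% against 25.7%, 60.3% against 36.9% and 51.4% against 33.0% of pairs, and they stood at higher levels. At such shares many pairs would have both rows called without a link between them, and the pairing was not tested. Across the pairs, Pearson's r of the log2 differences was 0.22, 0.53 and 0.55 in the 3 comparisons, and 0.22, 0.42 and 0.47 without C20orf166-AS1. These are descriptions over pairs that share libraries, and pairs with overlapping exons may share reads. Over the 124 RNAs with such exons, the median overlap was 9.78% of the RNA's exon bases. Between resistant and treated parental cells, r was 0.37 in pairs with overlapping exons and 0.33 in pairs with bodies apart. In pairs with overlapping bodies and separate exons r was 0.85, or 0.69 without C20orf166-AS1. The part of shared reads was not tested. In both comparisons with resistant cells the same-direction pairs, also those that held below, include C1QTNF1-AS1 and SH3RF3-AS1. Both had entered through resistant cells only, where they are high.

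**Figure D4:**
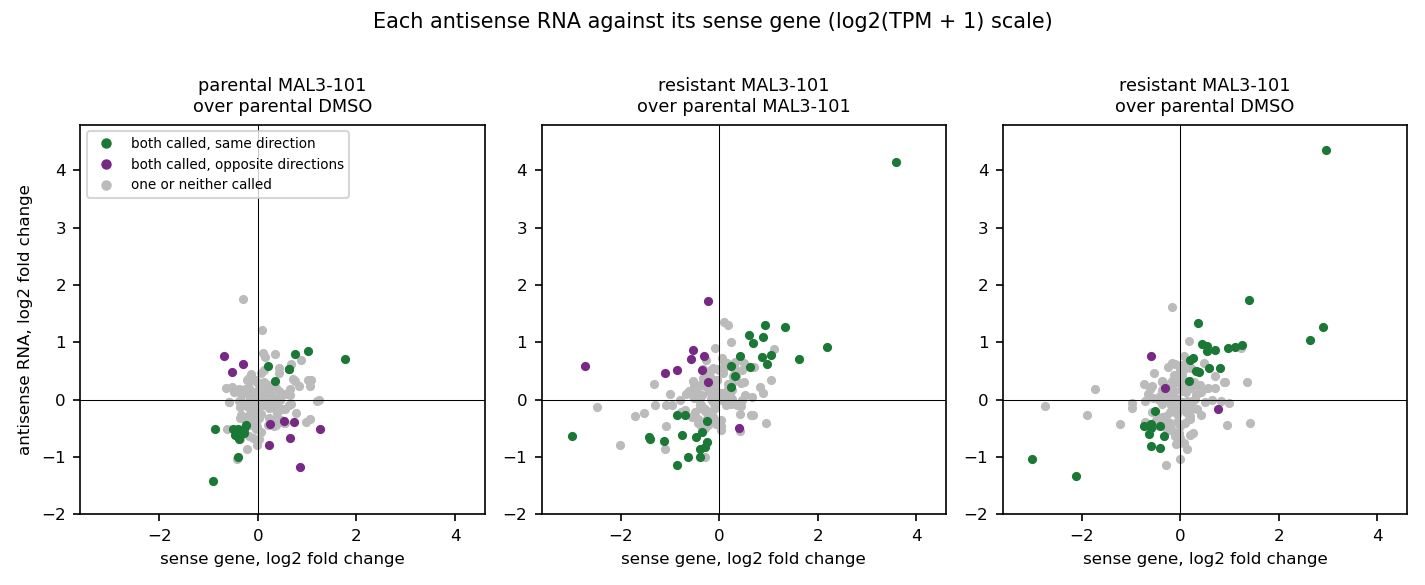
Log2 fold change of each antisense RNA (vertical) against that of its sense gene (horizontal) for 179 pairs in 3 comparisons; green pairs have both rows called in the same direction, purple in opposite directions, grey otherwise. The point at the upper right of the second and last panels is C20orf166-AS1 with C20orf166, at 4.15 against 3.59 and 4.35 against 2.96.

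The same-direction and opposite counts depended on single libraries. Between treated and DMSO parental cells, the 18 and 10 pairs became 3 and 5 without parental MAL3-101 library A, 9 and 3 without library B, and the opposite pairs 5 without resistant library A or B. Between resistant and parental cells with the drug, the 32 and 10 pairs became 13 and 2 without resistant library A and 14 and 3 without resistant library B. They were 16 and 3 without parental MAL3-101 library A and 17 and 1 without library B. Between resistant and DMSO cells, the 31 and 3 pairs became 12 and 0 without resistant library A and 9 and 0 without resistant library B. Opposite pairs there numbered 1 without parental MAL3-101 library B, 11 without DMSO library A and 5 without DMSO library B. With each library left out in turn, 2 same and 2 opposite pairs held in the first comparison, 11 and 1 in the second, and 8 and 0 in the last.

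The 3 opposite pairs that held were those of KDM4A, AGAP2 and BAIAP2. KDM4A encodes a histone H3 demethylase. It had 71.3 and 74.1 TPM in treated parental cells, against 42.4 and 37.7 TPM in DMSO cells, a log2 difference of 0.85 ± 0.07 (limma adjusted p = 0.00024), while KDM4A-AS1 fell by 1.18. Of the exon bases of KDM4A-AS1, 24.0% lie over KDM4A exons. AGAP2 differed by 0.52 ± 0.05 in treated against DMSO parental cells (limma adjusted p = 0.00057), while AGAP2-AS1 fell by 0.38. Of its exon bases, 57.7% lie over AGAP2 exons, and reads in them cannot be told apart.

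BAIAP2, the gene of an adaptor protein that links membranes to the actin skeleton, differed most from its RNA. It had 4.16 and 4.89 TPM in resistant cells, 35.7 and 35.5 TPM in treated parental cells, and 35 and 36.5 TPM in DMSO cells. Both resistant libraries were far below all others, with a log2 difference of -2.73 ± 0.09 from treated parental cells (limma adjusted p = 2.1e-06). BAIAP2-AS1, now BAIAP2-DT, had 7.80 and 7.11 TPM in resistant cells, 4.73 and 4.47 TPM in treated parental cells, and 8.40 and 7.92 TPM in DMSO cells. Its log2 difference from treated parental cells was 0.59 ± 0.11 (limma adjusted p = 0.0030). Against DMSO cells the 2 did not move in opposite directions. BAIAP2 was lower there too (log2 difference -2.74), and both resistant libraries of BAIAP2-AS1 lay below both DMSO libraries. These 2 genes share no exon bases and start head to head. Their start windows (RefSeq, GRCh38.p14) are printed because 2 transcripts from 1 stretch of DNA moved in opposite directions between the drug-treated lines. That of BAIAP2-AS1 is chr17:81034670-81034969 on the minus strand and that of BAIAP2 chr17:81034901-81035200 on the plus strand, the first of 4 BAIAP2 windows, and they share 69 bases. Capitals mark the GC box, the CCAAT box and the TATAAA box on either strand, the last of which was found in the BAIAP2 window only.
BAIAP2-AS1: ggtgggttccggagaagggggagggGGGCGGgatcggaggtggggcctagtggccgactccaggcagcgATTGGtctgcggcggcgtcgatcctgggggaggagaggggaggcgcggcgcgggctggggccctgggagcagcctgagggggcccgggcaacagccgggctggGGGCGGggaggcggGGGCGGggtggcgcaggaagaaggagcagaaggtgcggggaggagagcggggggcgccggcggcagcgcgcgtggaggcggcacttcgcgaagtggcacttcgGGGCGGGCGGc
BAIAP2: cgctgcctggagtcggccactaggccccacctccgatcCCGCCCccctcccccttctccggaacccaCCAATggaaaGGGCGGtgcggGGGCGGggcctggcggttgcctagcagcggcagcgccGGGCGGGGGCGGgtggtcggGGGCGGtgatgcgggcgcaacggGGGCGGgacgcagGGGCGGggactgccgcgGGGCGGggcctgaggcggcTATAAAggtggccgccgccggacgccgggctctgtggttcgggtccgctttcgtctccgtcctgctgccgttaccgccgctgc

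**Figure D5:**
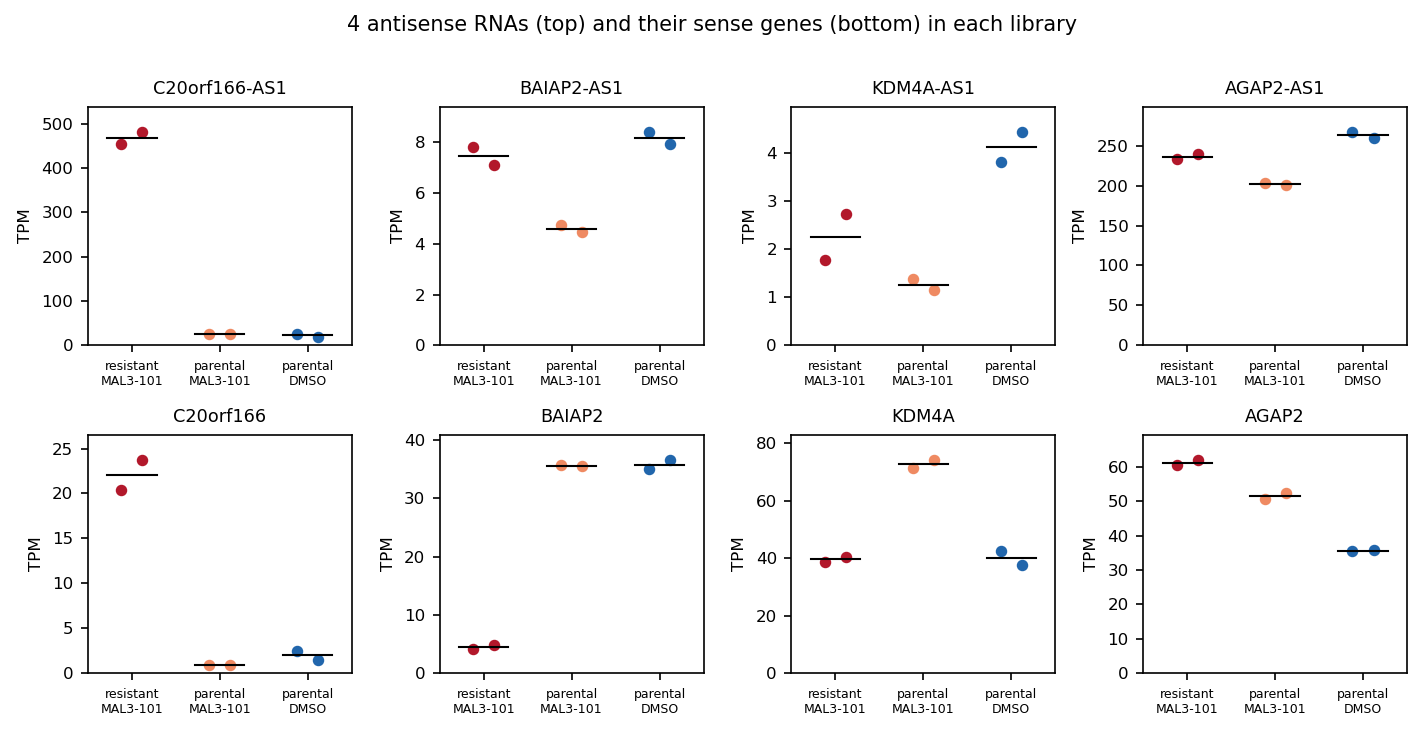
TPM in each library of 4 antisense RNAs (top row) and their sense genes (bottom row), on linear axes from 0; points are libraries A and B and lines their means. C20orf166-AS1 and C20orf166 are both highest in resistant cells, while BAIAP2 is at 4.16 and 4.89 TPM in resistant cells and BAIAP2-AS1 at 7.80 and 7.11 TPM.

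In other opposite pairs the call of the RNA or of the sense gene was weaker. That of the sense gene was weaker for PRKAG2, described above, and for EPB41L4A between resistant and DMSO cells (log2 difference -0.59; limma adjusted p = 0.049), where EPB41L4A-AS1 was higher. The EPB41L4A call ended without parental MAL3-101 library B, resistant library A or B, or DMSO library A (adjusted p of up to 0.19 with 1 library left out). STARD4 encodes a sterol carrier. It had 70.1 and 70.1 TPM in treated parental cells against 27.9 and 29.2 TPM in DMSO cells, and STARD4-AS1 had 0.790 and 0.930 TPM in treated parental cells against 1.81 and 1.52 TPM in DMSO cells. COX10 encodes an enzyme of heme A synthesis. It had 95.7 and 94.45 TPM in treated parental cells against 57.1 and 57.2 TPM in DMSO cells, while COX10-AS1 fell by 0.39 in the same comparison. NR2F2 encodes an orphan nuclear receptor. It had 35.4 and 38.7 TPM in treated parental cells against 56.9 and 63.3 TPM in DMSO cells, and NR2F2-AS1 had 4.73 and 7.51 TPM in treated parental cells against 3.02 and 3.19 TPM in DMSO cells. The calls of NR2F2-AS1 and COX10-AS1 ended without parental MAL3-101 library B, with adjusted p of up to 0.11 and 0.053. That of STARD4-AS1 ended without any 1 library other than DMSO library B, with adjusted p of up to 0.16.

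The arrangement of the pairs was set beside their calls. Of 116 pairs with overlapping exons, 18 had both called in the same direction and 9 in opposite directions between resistant and parental cells with the drug. Of 27 pairs with overlapping bodies and separate exons, 7 had both called, each in the same direction, and C20orf166-AS1 is among them. Of 34 pairs with bodies apart, 7 were called in the same direction and 1, that of BAIAP2, in the opposite direction. Of 81 head-to-head pairs, 8 and 5 were called in the same and in opposite directions, against 24 and 5 of the 96 others. In treated against DMSO parental cells the same counts were 9 and 5 of the head-to-head pairs against 8 and 5 of the others, and in resistant against DMSO cells 11 and 1 against 19 and 2. Among pairs with overlapping exons, 11 and 7 were called in the same and in opposite directions in treated against DMSO parental cells, and 19 and 2 in resistant against DMSO cells. These counts were not tested against each other.

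The start windows of 153 of the 197 RNAs were found in RefSeq, 200 windows in all, and compared with all 35114 windows of the table on both strands. GGGCGG, the GC box, was in 56.0% of antisense windows and 45.0% of all. CACGTG, the E-box bound by MYC and related factors, was in 13.0% and 7.26%. GAANNTTC, part of a heat shock element, was in 8.0% and 6.77%, and TGATGNAA, a C/EBP and ATF element, in 1.5% and 3.62%. CCAAT was in 30.5% and 34.6%, and TATAAA in 5.50% and 11.5%. CAGCTG, an E-box of muscle regulatory factors added after the data were seen, was in 12.5% and 17.9%. GAANNTTC, CACGTG and CAGCTG read the same on both strands. Of 63 head-to-head pairs with windows for both genes, 44 had windows that overlapped, so a motif there belongs to both. These matches describe letters in the windows only.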

How the data were processed

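Per the labels' protocols, total RNA of each library was taken with a column kit and sequenced as paired-end TruSeq libraries. The tools RSEM and DESeq and the hg19 build appear in the notes, per the submitters' processing notes. Tool versions, aligner, gene annotation and strand setting were not given in the sources used here. What the authors deposited was TPM per gene name, 1 file a library, and read depth cannot be had from TPM. Titles of the DMSO libraries mention MAL3-101 too, and the groups follow the description field.

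The tests covered the 15148 rows that reached 1 TPM as a group mean anywhere. Count models need counts and were left out. Group means of log2(TPM + 1) were fitted in limma 3.58.1 (R 4.3.3) to the 6 libraries together with a mean-variance trend, giving 3 residual and 4.17 prior degrees of freedom. The pseudocount of 1 understates changes of low values. Adjusted p (Benjamini-Hochberg) covers all tested rows of a comparison, and an adjusted p under 0.05 was called. The script was tested on simulated data. Comparisons share libraries, so their results are not independent. Alternatives were pseudocounts of 0.1 and 0.5, no filter, a filter on the mean of all libraries, a fit on only the groups compared, a replicate block, median-ratio scaling, no mitochondrial rows, and each library left out.

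Sense genes were matched by the name before the hyphen (C17orf76 through FAM211A). HOXA-AS2, HOXA-AS3, HOXB-AS1, HOXB-AS3, HOXC-AS1 and KRTAP5-AS1 had no sense row, and 12 sense rows were under 1 TPM. Arrangements came from GENCODE release 29 and sequences from RefSeq GRCh38.p14, both matched by name, since the files carry no coordinates. Members, lists and tests were chosen with earlier results of these data known. Named RNAs are those with the largest called rises and falls, the highest levels, opposite calls to the sense gene or presence in 1 group only, up to 8 each, plus a list of well-studied RNAs. PRKCQ-AS1, NCBP2-AS2 and ST7-AS1 are outside that rule and were named because their calls held. Many of the 197 RNAs enter only counts and ranges, and 1 of these is left out of the plot of held calls and is not reported here. The split at 5 TPM, the set of calls that held and the CAGCTG search were chosen after the data were seen.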

Additional observations from a re-analysis of the deposited data

How the results depend on the processing

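With 1 library left out, which leaves its group with 1 sample that is assumed to vary like the other groups, RNAs called higher numbered 6 to 26 in treated against DMSO parental cells, 27 to 63 in resistant against treated parental cells and 16 to 43 in resistant against DMSO cells. RNAs called lower numbered 15 to 41, 13 to 32 and 13 to 36 in the same order. Same-direction pairs numbered 3 to 25, 13 to 47 and 9 to 39, and opposite pairs 3 to 15, 1 to 14 and 0 to 11. Without the filter on low levels, treated against DMSO parental cells gave 9 higher and 18 lower RNAs and 3 opposite pairs. Resistant against treated parental cells gave 20 same and 4 opposite pairs, and resistant against DMSO cells gave 19 lower RNAs, 14 same pairs and 1 opposite pair. A fit on only the 2 groups compared gave 11 higher RNAs and 5 opposite pairs in treated against DMSO parental cells. The cause was not tested; more rows are tested without the filter, and fewer samples enter the others. The library letters did not pair the samples: correlations of A minus B were -0.02, 0.03 and -0.02 between the 3 pairs of groups. A replicate block gave 17, 44 and 37 higher and 33, 25 and 31 lower RNAs, 14, 29 and 30 same pairs and 11, 7 and 2 opposite pairs. Of 219 called values of single genes, 0 reversed under any of these settings: 116 of 1743 values from settings other than leaving out a library, and 265 of 1314 with 1 library left out, were no longer past the threshold. With 2 libraries a group and no depth, low-level RNAs limit what could be called.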

Other observations

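TTN-AS1, which lies over the gene of the sarcomere protein titin with 55.1% of its exon bases on TTN exons, had 6.57 and 6.86 TPM in resistant cells, 2.18 and 2.08 TPM in treated parental cells, and 5.02 and 1.65 TPM in DMSO cells. Both resistant libraries were above all others, and the DMSO libraries lay on either side of the treated parental ones. The log2 difference of resistant from treated parental cells was 1.30 ± 0.34 (limma adjusted p = 0.013), and the call ended without any 1 of the 4 libraries with MAL3-101 (adjusted p of up to 0.069 with 1 library left out). TTN had 10.4 and 10.6 TPM in resistant cells, 4.86 and 5.14 TPM in treated parental cells, and 6.04 and 2.34 TPM in DMSO cells.

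The 5 nearest tested rows on each side were also read for each RNA, and 4 RNAs are described that were picked after the data were seen. Of all tested rows, 21.3% were called higher and 34.8% lower in resistant against treated parental cells. Around PRKAG2-AS1, 7 of 10 neighbours were called lower by limma in resistant against treated parental cells, with a median log2 difference of -0.38, while PRKAG2-AS1 rose by 1.71. Around KDM4A-AS1, 9 of 10 were called lower, with a median of -0.74. KDM4A-AS1 itself had 1.77 and 2.73 TPM in resistant cells against 1.37 and 1.14 TPM in treated parental cells (log2 difference 0.51; limma adjusted p = 0.047). That call ended without parental MAL3-101 library A or B or resistant library B (adjusted p of up to 0.28 with 1 library left out). Around MCM3AP-AS1, 8 of 10 were called higher and 1 lower, with a median of 0.34, and MCM3AP-AS1 rose by 0.90. Around C20orf166-AS1, 5 of 10 were called higher and 2 lower, with a median of 0.34 against 4.15 for the RNA.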
